A study of Culex quinquefasciatus with 7 samples.

Results

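The step from 24 h to 36 h of adult life was examined in whole females of Culex quinquefasciatus, the southern house mosquito, through 1 library collected 36 h after eclosion and 1 collected 24 h after it. Eclosion is the moment at which the adult leaves the pupa. Of the 20305 genes in the deposited table, 7858 had a value of at least 5 FPKM in the 36 h or the 24 h library, and these are the genes described here. FPKM, the unit inferred from the authors' pipeline and the values, counts sequenced fragments for each kilobase of a gene and corrects them for library size. It measures a gene's share of the library and not its amount per animal. The libraries came from a series of 7, sampled at 2, 12, 24, 36, 48, 60 and 72 h. Each was made from messenger RNA of the whole bodies of 200 pooled adult females, reared with 12 h of light and 12 h of dark. Labels give no strain, diet, mating state or treatment, and as labelled the groups differ by age alone.

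Newly emerged mosquitoes are soft and sexually immature. In the days before a first blood meal the cuticle hardens, the gut is remodelled, and the fat body and ovary become able to respond to blood with yolk synthesis, a period known as the previtellogenic stage. Much of that maturation is under the control of juvenile hormone. The identifiers of the table, which begin with CPIJ, are not paired with gene names in the files, and 0 of them occur in the reference table of 18458 genes. No gene is therefore given a function, and apart from 4 identifiers the genes are described by their rank and time course. The female tissue label could not be checked against marker genes for the same reason.

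With 1 library at each time there is no replicate error, so no difference between 36 h and 24 h was tested and each is given by its size. The change of a gene is log2((36 h + 1)/(24 h + 1)), which is negative for genes lower at 36 h and makes the changes of low genes look smaller than they are. Classes such as 2-fold or 4-fold use values with 1 added, whereas fold differences of single genes are plain ratios of FPKM. The 36 h library had a relative depth of 0.786 of the 24 h library, read from the steps between the lowest values. The absolute depth is unknown. The sum of all values was 430187 FPKM at 36 h and 465605 FPKM at 24 h. Rescaling the libraries by their median ratio over 2761 genes present in all of them gave a second form of the change, printed where it differs.

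Most genes differed little. The median change was 0.01, with an interquartile range of -0.23 to 0.26, and 6659 genes (84.7%) were within 1.5-fold. After rescaling the median was 0.09. A 2-fold or larger difference separated the libraries in 127 genes with the higher value at 36 h (1.62% of those compared) and in 116 with the lower value there (1.48%). The 127 higher genes make up 52.3% of the changed ones, and after rescaling, with 178 higher and 95 lower, 65.2%. The direction with more genes changed with the minimum value. Requiring 10 FPKM at either time left 5147 genes, 86 of them higher and 92 lower. Requiring 20 FPKM left 2874 genes, 46 of them higher and 75 lower.

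The sizes were unequal. With 1 added to each value, 24 genes (0.305%) were at least 4-fold lower and 0 genes at least 4-fold higher, on either scale. By plain ratio the gene ranked 4 by increase passed 4-fold, at 4.56, with 10.3 FPKM at 36 h against 2.25 FPKM at 24 h. With a pseudocount of 0.1 in place of 1, 2 genes were at least 4-fold higher. The most extreme decrease was -6.16 and the most extreme increase 1.88 on the log2 scale. A 2-fold decrease was found in 22 of 521 genes (4.22%) averaging 100 to 1000 FPKM and in 38 of 3109 (1.22%) averaging under 10 FPKM. For 2-fold increases the percentages in the same classes were 1.73% and 1.93%. The median change was 0.10 in the class under 10 FPKM, then 0.03, -0.10 and -0.16 in the classes from 10, 20 and 50 FPKM, -0.25 in the class from 100 to 1000 FPKM and 0.06 in the 88 genes averaging 1000 FPKM or more. After rescaling these medians were 0.18, 0.11, -0.01, -0.07, -0.16 and 0.15.

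**Figure D1:**
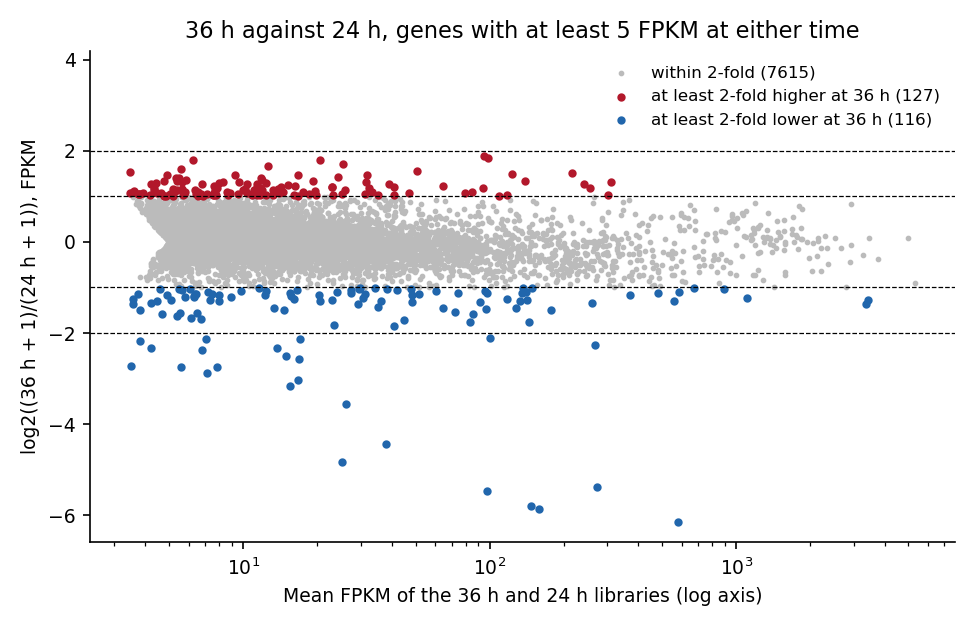
Change between the libraries, as log2((36 h + 1)/(24 h + 1)), against the mean FPKM of the 36 h and 24 h libraries on a log axis, 1 point per gene, with dashed lines at 2-fold and 4-fold. The 127 higher genes reach 1.88, while the 116 lower genes reach -6.16.

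The values at the edges of these classes were close to each other. Among genes just inside the minimum, with a higher value of 5 to 6 FPKM, the median change was 0.13 (658 genes), and just outside it, at 4 to 5 FPKM, 0.11 (772 genes). The last gene counted as 2-fold lower had 7.33 FPKM at 36 h, against 15.8 FPKM at 24 h. The first gene outside had 4.17 FPKM at 36 h, against 9.34 FPKM at 24 h. With 1 added to each value its change was -0.9988, although its plain ratio passes 2-fold. The 4-fold class had a wider gap, from -2.11 for the last gene inside to -1.84 for the first outside.

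Most of the largest decreases were part of a decline that began before 24 h. CPIJ003470 had 3623, 5648, 1149, 15.1, 3.30, 3.60 and 5.20 FPKM at 2, 12, 24, 36, 48, 60 and 72 h. It was 76.0-fold lower at 36 h than at 24 h, after a 4.92-fold lower value at 24 h than at 12 h, and it was 4.58-fold lower again at 48 h. Its level was thus above 1000 FPKM in every library through 24 h and under 10 FPKM in every library from 48 h on.

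CPIJ003476 followed the same course at a lower level, with 274, 1306, 313, 4.37, 0.859, 0.614 and 0.346 FPKM over the 7 times. Its value at 36 h was 71.8-fold below that at 24 h. The genes ranked 3 to 6 by decrease had 0.771 to 11.7 FPKM at 36 h and 49.5 to 532 FPKM at 24 h, which are 45.4-fold to 68.1-fold differences. All of the first 6 genes had their maximum at 12 h. In each of them the difference between 36 h and 24 h was larger than that of the intervals on either side.

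The gene ranked 7 behaved differently. It had 7.32, 5.08, 73.3, 2.44, 5.89, 7.62 and 2.99 FPKM, so its decrease rests on the 24 h library alone. The remaining 14 genes of the 4-fold class with 10 FPKM or more at either time had 0.715 to 91.8 FPKM at 36 h and 10.5 to 443 FPKM at 24 h. The gene ranked 21 had 36.9 FPKM at 36 h against 163 FPKM at 24 h, and its values in the 2 h and 12 h libraries were 11145 and 3628 FPKM. A further 3 genes were in the 4-fold class without reaching 10 FPKM at either time. Each of these had under 1 FPKM at 36 h and between 6.80 and 7.69 FPKM at 24 h.

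Of the 21 ranked genes, 16 had their largest fold decrease of the series in this step and 5 between 12 h and 24 h. The choice of genes by this step favours that count. As a group the 24 genes held 7.23%, 5.71%, 0.753%, 0.0476% and 0.0242% of the library's FPKM in the libraries from 2 h to 48 h. Their median over the same libraries was 263, 152, 29.1, 3.06 and 1.13 FPKM, and it was 1.07 and 1.29 FPKM in the last pair. The maximum fell in the 2 h library for 14 of them, in the 12 h library for 9 and in the 24 h library for 1. Most of their transcript share had therefore gone before 24 h. Their median was lower again after the step, fell further at 48 h and then stayed low.

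**Figure D2:**
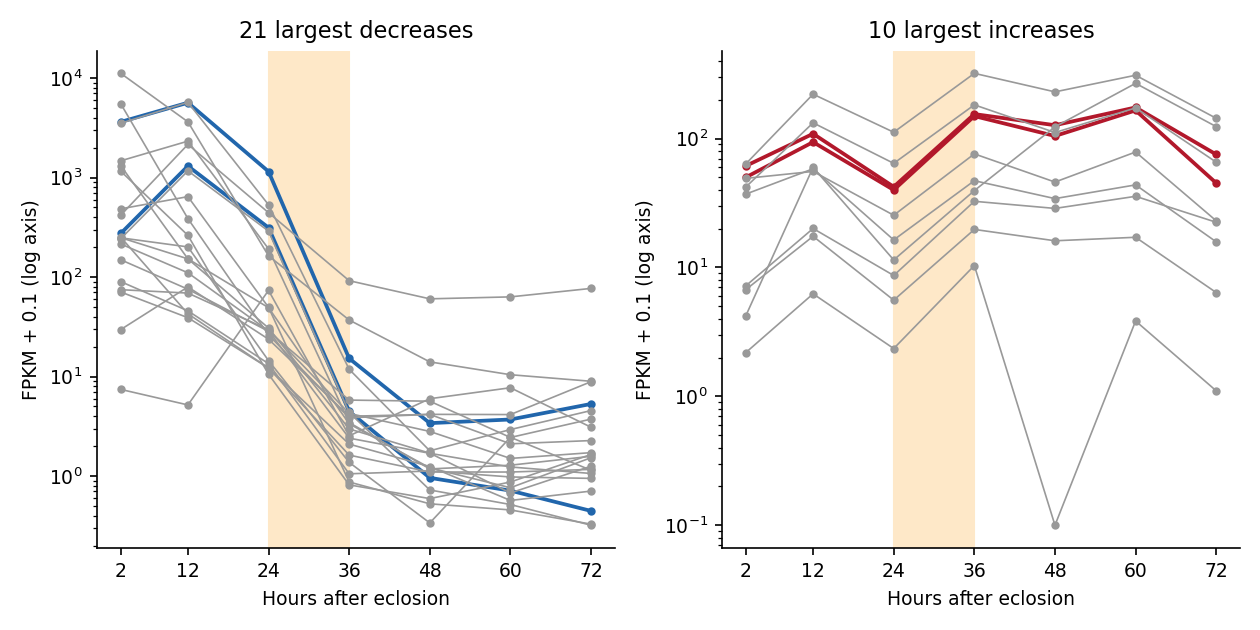
FPKM plus 0.1 on a log axis at 2, 12, 24, 36, 48, 60 and 72 h for the 21 largest decreases (left) and the 10 largest increases (right) with a minimum of 10 FPKM in either library of the step, 1 line per gene, with the first 2 ranks in colour and the step from 24 h to 36 h shaded. CPIJ003470 is the blue line with 15.1 FPKM at 36 h, against 1149 FPKM at 24 h. The red lines of the increases are high again at 60 h and low at 72 h.

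Many of the strongly lower genes had neighbouring identifiers. Of the 24 genes, 13 (54.2%) had another of the 24 with an identifier 1 apart, and 15 (62.5%) had one up to 10 apart. Among the 24 genes with the largest increases, 3 (12.5%) had one 1 apart and the same 3 had one up to 10 apart. The largest group held 5 of the 24 genes within 8 successive identifiers, CPIJ003470 and CPIJ003476 among them, with decreases from -2.71 to -6.16. Next came 3 successive identifiers, with decreases from -2.18 to -5.47, and 3 genes within 12 identifiers, with decreases from -2.74 to -3.56. Not every gene between them was as much lower. Inside that last group 1 gene had 60.6 FPKM at 36 h, against 79.6 FPKM at 24 h, and another had 16.4 FPKM at 36 h, against 27.5 FPKM at 24 h. Over all 2-fold changes, 34 of 116 lower genes (29.3%) and 11 of 127 higher genes (8.66%) had a member of the same list 1 apart. Positions in the genome were not used here. How the authors treated reads shared between similar copies is unknown, so values of near-identical neighbours may not be independent.

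The 116 genes of the 2-fold lower class were sorted by the library that held their maximum. The 2 h library held the maximum of 47 genes (40.5%), the 12 h library that of 31 (26.7%), the 24 h library that of 34 (29.3%) and a later library that of 4. Over all 7858 genes compared, these libraries held the maximum of 11.0%, 7.50% and 11.4% of genes in the same order, and the 72 h library that of 40.4%. Choosing genes lower at 36 h than at 24 h favours a maximum at 24 h and excludes one at 36 h.

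Genes with their maximum at 2 h had medians of 249, 87.9, 22.5, 4.28, 5.55, 3.76 and 4.25 FPKM over the 7 times. For those with their maximum at 12 h the medians were 58.4, 90.7, 49.5, 11.7, 4.90, 4.34 and 5.20 FPKM. A transient course marked the genes with their maximum at 24 h, whose medians were 4.26, 21.8, 51.7, 20.8, 12.8, 8.65 and 10.9 FPKM. In this last class the level at 36 h remained above that of 2 h, whereas the other classes stood far under their starting level. Sorting by the hour of the maximum favours this contrast.

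Some of these decreases rest on a single library. In 19 of the 116 genes the 24 h value was at least 2-fold above both the 12 h and the 36 h value. In 5 genes the 36 h value was at least 2-fold below both the 24 h and the 48 h value.

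Together the 116 genes made up 19.3%, 14.3%, 5.31%, 2.10%, 1.54%, 1.28% and 1.29% of the summed FPKM over the 7 times. Their sum was 9049 FPKM at 36 h and 24726 FPKM at 24 h, a difference of -15677 FPKM, beside -35418 FPKM for the whole library. Another -21705 FPKM lay in 626 genes of at least 100 FPKM that were within 2-fold, and the 127 higher genes added 3155 FPKM. The share of those 626 genes did not fall, with 65.4% of the library's FPKM at 36 h and 65.1% at 24 h. These sums are of deposited values, and the median ratios used for rescaling were 1.02 at 36 h and 1.08 at 24 h. A value of 1000 FPKM or more at either time was reached by 104 genes, of which 5 were 2-fold or more lower at 36 h and 0 as much higher. After CPIJ003470, the next of those 5 by decrease had 5599, 5542, 4837, 1872, 1614, 1349 and 1699 FPKM over the 7 times. Its 3 values through 24 h were all far above its 4 values from 36 h on.

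**Figure D3:**
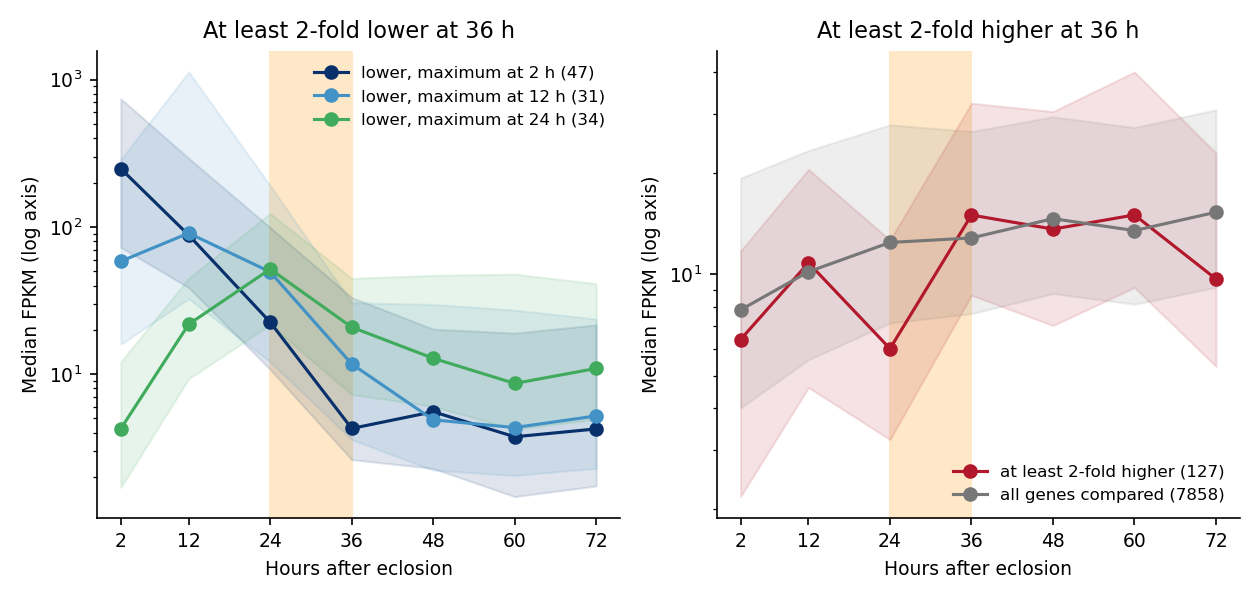
Median FPKM on a log axis by hours after eclosion, with the interquartile range as a band and the step from 24 h to 36 h shaded, for the lower genes by the hour of their maximum (left) and for the 127 higher genes beside all 7858 genes (right). Genes lower at 36 h settle at medians of 4 to 11 FPKM by 72 h, and the medians of the higher genes are 6.01, 15.0, 13.6, 15.0 and 9.69 FPKM over the times from 24 h on.

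The libraries that the step does not use gave a separate measure. Between 48 h and 12 h, 86 of the 116 lower genes (74.1%) were at least 2-fold lower at 48 h and 6 (5.17%) at least 2-fold higher, with a median change of -2.21. Of all 7858 genes, 4.95% were at least 2-fold lower and 21.6% at least 2-fold higher at 48 h, with a median change of 0.47. After rescaling, 88 of the 116 genes were at least 2-fold lower, against 6.92% of all genes compared. In most of the 116 genes the level was thus lower at 48 h than at 12 h in other pools of females. That span includes the time before 24 h, so it cannot place the decrease between 24 h and 36 h.

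A wider span was tested with limma. The late libraries (48, 60 and 72 h) were compared with the early ones (2 and 12 h) over 11868 genes averaging 1 FPKM or more. Changes before 24 h enter this fit too, so it cannot test the step itself. Differences among the times of 1 side serve as the error of that fit, since no time is replicated. With a threshold of 0.05 on the Benjamini-Hochberg adjusted p, 76 of the 116 lower genes (65.5%) fell and 7 rose. Without the 12 h library 77 fell and 26 rose, against 10.7% and 61.9% of the compared genes. Over all genes tested, 7.74% fell and 44.9% rose. Over the 7857 of the compared genes that entered the fit, 7.53% fell and 46.1% rose. After rescaling, 80 of the 116 lower genes fell and 5 rose, against 11.2% and 32.6% of the compared genes. CPIJ003470 fell by 9.83 ± 0.29 on the log2 scale (standard error, limma adjusted p = 7.38e-06), and CPIJ003476 fell by 8.56 ± 0.58 (limma adjusted p = 0.000237). Of the 21 ranked decreases, 20 fell in this test. The exception was the gene ranked 7, with a difference of -0.20 ± 0.34 (limma adjusted p = 0.63).

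The increases at 36 h were smaller and of another shape. CPIJ005743 had 50.004, 93.9, 39.8, 149, 105, 165 and 45.1 FPKM at 2, 12, 24, 36, 48, 60 and 72 h, a 3.75-fold higher value at 36 h than at 24 h. Next came CPIJ008379 with 61.3, 109, 42.2, 155, 127, 174 and 75.2 FPKM, a 3.67-fold difference. Both genes were high at 12, 36 and 60 h and lower at the times next to each of these, and at 72 h CPIJ005743 was close to its level at 2 h.

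The other 8 of the 10 largest increases had 10.3 to 321 FPKM at 36 h and 2.25 to 112 FPKM at 24 h. In all 10 genes the value at 60 h was above those at 48 h and 72 h, and the value at 12 h was above that at 2 h. A higher value at 12 h than at 2 h was common. Over all 7858 genes the median log2 change between these times was 0.31, or 0.10 after rescaling. The gene ranked 5 also climbed over the series, with 4.13, 59.7, 11.3, 39.4, 123, 268 and 124 FPKM. For the gene ranked 4, listed at 0 at 48 h between 10.3 FPKM in the 36 h library and 3.75 FPKM in the 60 h library, a failed estimate cannot be told from a true 0. A value of 0 at 48 h was listed for 3 of the 127 higher genes.

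The 127 higher genes had medians of 6.40, 10.8, 6.01, 15.0, 13.6, 15.0 and 9.69 FPKM over the 7 times. After rescaling these medians were 8.29, 11.8, 5.54, 14.7, 12.4, 14.7 and 8.44 FPKM. The 60 h library held the maximum of 57 genes (44.9%), the 36 h library that of 42 (33.1%), the 12 h library that of 15 (11.8%) and the 72 h library that of 6 (4.72%). Over all 7858 genes these libraries held the maximum of 11.4%, 4.52%, 7.50% and 40.4% in the same order. Choosing genes higher at 36 h than at 24 h favours a maximum at 36 h and excludes one at 24 h. In 33 of the 127 genes the 24 h value was at least 2-fold below both the 12 h and the 36 h value. In 7 of them the 36 h value was at least 2-fold above both the 24 h and the 48 h value.

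In the limma comparison of the late with the early libraries, 44 of these 127 genes (34.6%) rose, against 46.1% of the compared genes. After rescaling, 31 of them (24.4%) rose, against 32.6% of the compared genes. CPIJ005743 had a difference of 0.42 ± 0.54 (limma adjusted p = 0.52) and CPIJ008379 one of 0.53 ± 0.41 (limma adjusted p = 0.30). Without the 12 h library 75 of the 127 genes rose, against 61.9% of the compared genes.

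The late libraries gave a further measure, which uses none of the values behind the step. It was chosen after the time courses had been seen and is described without a test. At 60 h, 104 of the 127 higher genes (81.9%) were above both their 48 h and their 72 h value, and 3 were below both. Of all 7858 genes, 18.0% were above both and 56.2% below both. The median difference between 60 h and the mean of 48 h and 72 h was 0.47 in the higher genes (interquartile range 0.29 to 0.71), -0.26 in the lower genes and -0.15 in all genes compared. After rescaling, 111 of the 127 genes (87.4%) were above both, against 31.5% of all genes.

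Over all genes compared, this followed the size of the increase between 36 h and 24 h. The percentage of genes with 60 h above 48 h and 72 h was 81.9% at changes of 1 or more, 52.6% from 0.5 to 1 (808 genes), 20.4% from 0 to 0.5 (3041 genes) and 6.84% from -0.5 to 0 (3171 genes). It was 6.72% from -1 to -0.5, 8.70% from -2 to -1 and 8.33% at -2 or less. After rescaling the 60 h, 48 h and 72 h values, the percentages in the same order of bins were 87.4%, 69.9%, 37.5%, 17.5%, 14.5%, 16.3% and 12.5%. On both scales the bins of negative change lay close together.

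It was also present at each level of expression. Among genes averaging under 10 FPKM, 48 of 60 higher genes had 60 h above both neighbours, against 19.1% of all genes of that level. From 10 to 20 FPKM it was 28 of 33 (16.4% of all genes), from 20 to 50 FPKM 14 of 18 (15.0%), from 50 to 100 FPKM 7 of 7 (18.6%) and from 100 to 1000 FPKM 7 of 9 (22.6%).

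**Figure D4:**
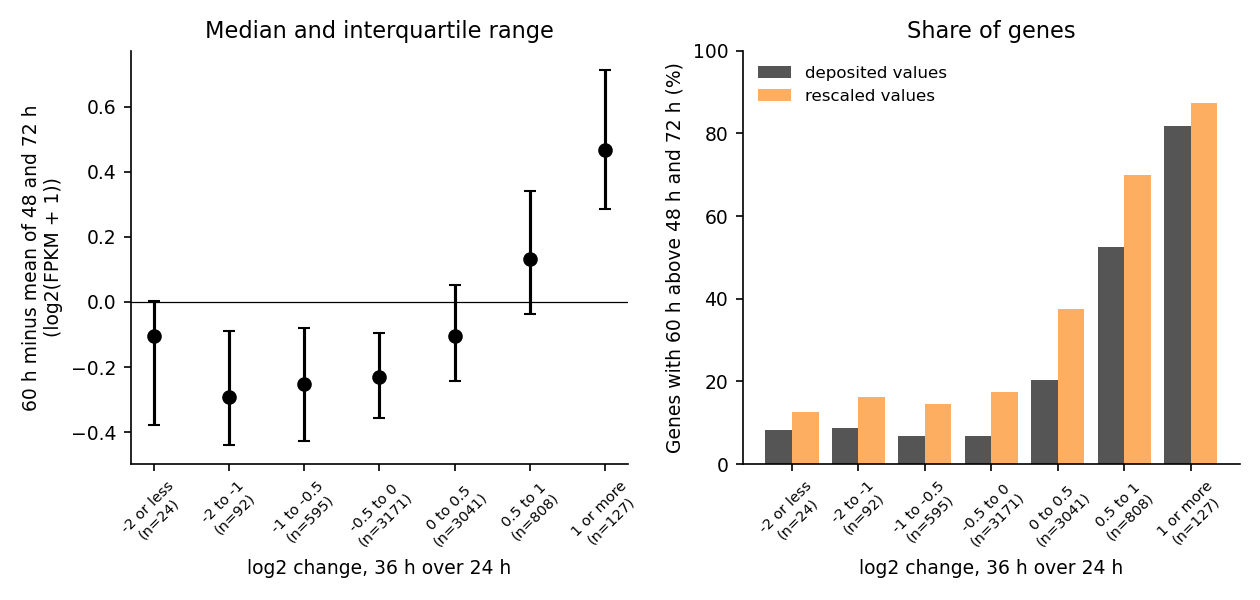
Genes binned by their log2 change between 36 h and 24 h, with the difference between 60 h and the mean of 48 h and 72 h in log2(FPKM + 1) as median and interquartile range (left), and the percentage of genes whose 60 h value lies above both the 48 h and the 72 h value, with deposited and rescaled values (right). The percentage is 81.9% in the 127 genes with a change of 1 or more and between 6.72% and 8.70% in the bins of negative change, or 87.4% and between 12.5% and 17.5% after rescaling.

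The hours 12, 36 and 60 lie 24 h apart, as do 24, 48 and 72, and the females were kept under a cycle of light and dark whose hour at sampling the labels do not give. Libraries also differed in depth. Relative to the 24 h library the depth was 0.982 and 0.915 in the 2 h and 12 h libraries and 0.786, 0.819, 0.731 and 1.17 in the later ones in order of time. The libraries at 12, 36 and 60 h were thus each shallower than those next to them. The part of depth in the pattern was not tested. With 1 pool and 1 library per time, the phase of the day, the pool and the library cannot be told apart. In whole bodies, fewer cells of a type and less RNA per cell cannot be told apart either.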

How the data were processed

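Messenger RNA of 7 pools of 200 whole females was sequenced, and the authors deposited 1 table with 1 value per gene and time. The unit FPKM was inferred from the pipeline of TopHat, Cufflinks and Cuffdiff named in the series' design text and from the deposited values, which are not whole; per the file headers the columns give only the hour. CASAVA 1.8 and Trimmomatic are listed in the submitters' processing notes. The genome build, annotation, use of strand and scaling of libraries were not stated in the labels or the header. Since absolute depth is unknown, intervals for counting error were not computed.

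A gene entered the step with 5 FPKM or more in either library and was compared as log2(FPKM + 1), also after rescaling by the median ratio over the 2761 genes that reached 10 FPKM in all 7 libraries. Relative depth is the commonest ratio between values under 0.3 FPKM, held within 0.02 (log2) by 12.8% to 21.7% of genes. Genes were ranked among those with at least 10 FPKM at either time, and identifiers were given for the first 2 in each direction. For 48, 60 and 72 h against 2 and 12 h, limma 3.58.1 in R 4.3.3 (lmFit, eBayes with trend, two-sided, Benjamini-Hochberg) was used after a test on simulated data. All other values came from Python 3.11.15 (numpy 2.4.6, pandas 2.3.3, matplotlib 3.10.9). The 24 planned gene lists, markers of male material included, could not be built without names. Genes, lists and tests were chosen with earlier results of these data known.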

Additional observations from a re-analysis of the deposited data

How the results depend on the processing

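Without a replicate at any time, the counts of the step depend on the choices made. Not every count that kept within 1.5 times is listed. With a pseudocount of 0.1, 191 genes passed 2-fold and 2 passed 4-fold in the direction of higher values at 36 h. In the direction of lower values 143 passed 2-fold and 24 passed 4-fold. Requiring at least 20 FPKM left 2874 genes, 46 of them higher and 75 lower. Of the 46, 38 had 60 h above 48 h and 72 h, against 18.5% of those 2874 genes. The median change was then -0.12, beside medians by level of 0.10 under 10 FPKM and -0.25 from 100 to 1000 FPKM. With at least 10 FPKM, 86 of 5147 genes were higher and 92 lower. With 48 h in place of 36 h, 8309 genes were compared, 328 of them higher and 237 lower. At least 4-fold differences were found in 5 and 37 of these, and the median change was 0.21. With 12 h in place of 24 h, the counts among 7903 genes were 953 and 382, then 89 and 153. The median change was 0.33. Both replacements span 24 h. After rescaling, 157 of 178 higher genes had 60 h above both neighbours, a larger count from a larger list. Over all compared genes the rescaled share was 31.5%. In the limma comparison 6252 of 11868 genes were called, and 2454 of 4885 with a mean of at least 10 FPKM. In that smaller set 20 of the 68 higher genes tested (29.4%) rose, against 40.6% of the compared genes. Leaving out each library in turn gave 4112 (without 72 h) to 8315 (without 12 h) calls. Of the lower genes, 71 to 94 fell and 4 (without 72 h) to 26 (without 12 h) rose. Of the higher genes, 33 to 75 (without 12 h) rose. In these fits 4.82% (without 72 h) to 10.7% (without 12 h) of the compared genes fell, and 30.1% to 61.9% rose. Of 62 alternative changes of single genes, 4 moved by over 1.5-fold, all decreases, and 0 changed sign. Depth limits values near 0. No paired analysis was possible because there is 1 library per time.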
